A study of Drosophila melanogaster with 3 samples.

Results

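The peaks described here are those that crowd together: peaks of the tagged fly repressor Deadpan (Dpn) whose summit had at least 2 other summits within 3000 bp. The other summits had to lie on the same chromosome. Whether Dpn itself binds at each peak was not tested. The peaks were chosen by measured values, namely the summit positions in the authors' thresholded peak list on the dm6 build. Peaks of that list with the same start and end were first merged into the one of highest signal, which took 6253 rows to 6230 peaks. Of these, 996 (16.0%) passed the rule, and 5234 did not. The number of summits around a member and the distances between them are therefore descriptions and not findings.

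Chromatin immunoprecipitation sequencing was done on whole Drosophila melanogaster embryos of both sexes, collected 0 to 16 h into development. All 3 biological replicates came from 1 transgenic line with stable expression of dpn-eGFP, in which the tag sits at the C-terminus, and chromatin was sonicated to 200 to 800 bp and precipitated with anti-GFP. There was no second genotype, treatment or stage, and peaks of a control library were not analysed here, so no difference between conditions could be measured. Whether the line also carried untagged dpn was not given in the sources used here. Whole embryos mix all tissues, so summits of 1 cluster cannot be told apart as bound in the same cells or in different ones.

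Dpn is a basic helix-loop-helix protein with an Orange domain, related to Hairy and the E(spl) proteins. Proteins of this class bind short DNA words of the E-box kind as dimers and recruit the corepressor Groucho, and Dpn is best known from neural stem cells (neuroblasts), where it acts in their self-renewal. Runs of neighbouring binding sites are a common arrangement in fly regulatory DNA, where long genes of development often hold several enhancers in their introns and upstream sequence.

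The largest cluster held 9 members over 10352 bp of the X chromosome, in and just before Raf, the kinase that relays signals from receptor tyrosine kinases such as the epidermal growth factor receptor (EGFR). It is printed first because it shows what the summits of 1 cluster do and do not share. The sequences are 101 bp around the summit on the forward strand of dm6 (Release 6, from RefSeq), 5′ to 3′. Capitals mark, on either strand, any of 8 words searched: the Hairy-class words CACGTG and CACGCG, the related word CACNAG, the other E-box words CAGCTG and CATATG, the word TATCGATA of the DNA replication-related element, GAGAG of the GAGA factor, and CAGGTAG of the early activator Zelda. A match describes the letters and is not evidence of binding.
CG2865 promoter, member 1 (chrX:2293693-2293793): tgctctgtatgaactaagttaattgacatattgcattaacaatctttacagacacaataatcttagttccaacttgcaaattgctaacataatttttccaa
Raf intron, member 3 (chrX:2296473-2296573): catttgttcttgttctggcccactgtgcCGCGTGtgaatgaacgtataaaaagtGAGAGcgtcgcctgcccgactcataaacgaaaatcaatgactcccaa
Raf intron, member 4 (chrX:2297681-2297781): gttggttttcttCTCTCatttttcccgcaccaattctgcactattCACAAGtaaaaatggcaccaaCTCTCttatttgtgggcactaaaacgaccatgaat
Raf intron, member 8 (chrX:2302261-2302361): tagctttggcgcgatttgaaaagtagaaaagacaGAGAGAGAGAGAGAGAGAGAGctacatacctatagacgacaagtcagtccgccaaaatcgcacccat
Raf intron, member 9 (chrX:2304045-2304145): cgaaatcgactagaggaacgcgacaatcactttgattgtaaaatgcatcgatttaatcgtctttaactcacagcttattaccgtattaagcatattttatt
Of these, member 4 is the strongest of the cluster, members 1 and 9 hold none of the 8 words, and member 8 holds a run of GAGAG copies that overlap. Member 3 holds a CACGCG word, and it is the second weakest of the 9.

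The next pair are the strongest members of other large clusters, an intron of CHES-1-like and an exon of the long non-coding RNA lncRNA:Vinr, and are shown as examples of strong summits in AT-rich sequence.
CHES-1-like intron (chrX:7706961-7707061): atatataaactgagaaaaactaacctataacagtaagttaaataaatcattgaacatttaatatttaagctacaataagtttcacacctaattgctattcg
lncRNA:Vinr exon (chrX:12751295-12751395): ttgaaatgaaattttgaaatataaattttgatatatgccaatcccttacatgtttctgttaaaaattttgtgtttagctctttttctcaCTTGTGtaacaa
The GC content of these windows was 23.8% in CHES-1-like and 24.8% in lncRNA:Vinr. The first holds no searched word, and the second holds 1 CACNAG match.

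The next pair hold TATCGATA and lie at promoters, of the autophagy gene Atg12 and of Rpn11, which encodes a subunit of the proteasome. They are shown because TATCGATA was found in clustered peaks at promoters only.
Atg12 promoter (chr3L:12136814-12136914): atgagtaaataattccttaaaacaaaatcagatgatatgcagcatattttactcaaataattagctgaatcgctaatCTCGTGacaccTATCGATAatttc
Rpn11 promoter (chr2L:5060102-5060202): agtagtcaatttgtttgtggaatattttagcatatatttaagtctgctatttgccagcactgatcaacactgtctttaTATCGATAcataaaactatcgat

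Members with CACGTG or CACGCG are shown because these are the words that Hairy-class proteins are known to bind. The promoter of fok has CACGTG at the edge of the window, and the promoter of Sxl, the switch gene of sex determination, and an intron of CG14434 have CACGCG.
fok promoter (chr2L:20085220-20085320): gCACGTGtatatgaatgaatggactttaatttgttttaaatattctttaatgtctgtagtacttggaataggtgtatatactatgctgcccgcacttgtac
Sxl promoter (chrX:7096626-7096726): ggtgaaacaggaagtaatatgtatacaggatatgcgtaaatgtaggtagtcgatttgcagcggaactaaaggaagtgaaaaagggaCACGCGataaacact
CG14434 intron (chrX:6854693-6854793): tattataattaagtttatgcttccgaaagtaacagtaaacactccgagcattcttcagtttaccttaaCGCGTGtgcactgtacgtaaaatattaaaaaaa

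The 996 members fell into 369 clusters, where a cluster is a run of members whose neighbouring summits lie within 3000 bp of each other. Of these clusters, 242 had at least 3 members and held 844 of the members. Another 102 held a single member, whose neighbours did not themselves pass the rule. There were 167 clusters of 3 members, 49 of 4, 15 of 5, 7 of 6, 3 of 7 and 1 of 9. Most members (735) had exactly 2 other summits within 3000 bp, 198 had 3, 53 had 4 and 10 had 5. At the boundary of the rule, the last members had their second nearest summit at 2992 to 2997 bp, and the first peaks left out had theirs at 3002 to 3013 bp.

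Clusters of at least 3 members spanned a median of 2529 bp (range 521 to 10806). Neighbouring members lay a median of 1042 bp apart (range 199 to 2996, n = 627 gaps). The gaps had a separate group at short distance. Of the 627, 114 (18.2%) were of 250 bp or less, only 25 (3.99%) lay between 250 and 600 bp, and 102 (16.3%) lay between 600 and 800 bp. The number of neighbouring members whose peaks overlapped was also 114 of 627. In 101 of these 114 pairs, both members matched the same peak in each of the 3 replicates. Members 2 and 3 at Raf, with signals of 775.6 and 229.9, matched the same replicate peaks, at ranks 306, 324 and 292 in replicates 1, 2 and 3.

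Overlapping pairs were more common among members than elsewhere. Of 996 members, 116 (11.6%) overlapped a stronger peak, against 161 of 5234 other peaks (3.08%). An overlapping peak already counts toward the other summits that the rule asks for. A higher share among members is therefore built in, and the contrast is a description and not a finding. The shares and ranks below were therefore also computed with overlapping peaks reduced to the strongest, an alternative added after the data had been seen. That left 5953 peaks, of which 722 (12.1%) passed the rule in 306 clusters, all of them members before. The largest cluster then held 7 members, and the median gap was 1199 bp (n = 416 gaps).

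**Figure D1:**
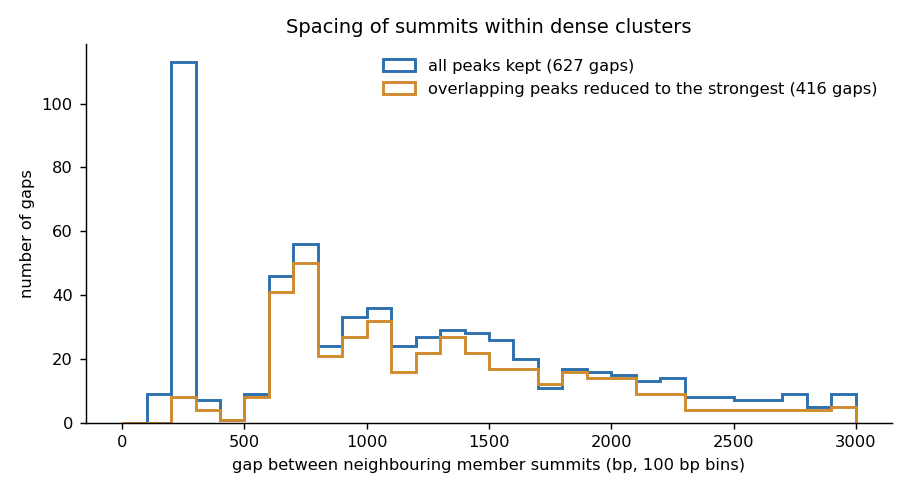
Histogram of the distance in bp between neighbouring member summits (x axis, 100 bp bins) against the number of gaps (y axis), with all peaks kept and with overlapping peaks reduced to the strongest. The tall bin just above 200 bp, part of the 114 gaps of 250 bp or less, nearly disappears in the second count, and the peak of both counts beyond it lies at 600 to 800 bp.

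At Raf (FBgn0003079, X, 2295466 to 2343870, forward strand), the first member lay 332 bp from the start of the neighbouring gene CG2865 and the other 8 lay inside Raf. The second was in the 5′ UTR, 852 bp from the start, and the remaining 7 were intronic, out to 8629 bp. The signal, a deposited value whose scale is not defined and which ranks peaks within a list, was 1846.7 at the fourth member. The others had 144.9 to 775.6. The fourth member ranked 63 in replicate 1, 28 in replicate 2 and 41 in replicate 3, and was the strongest of the cluster in all 3. The seventh, at 144.9, ranked 5059, 3804 and 7257, and was the weakest of the cluster in each.

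CHES-1-like (FBgn0029504), which encodes a forkhead transcription factor, held 7 members over 10806 bp, the longest span of any cluster. The member 174 bp from a start site had a signal of 577.0, and 6 intronic members had 175.6 to 1144.4. The strongest was intronic and ranked 94, 106 and 143 in replicates 1, 2 and 3, while the weakest ranked 10057, 4743 and 3560. No peaks of this cluster overlapped.

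A cluster of 7 over 6017 bp lay inside CG1677 and the overlapping lncRNA:CR44357, near the starts of CBP and CG42780. Its strongest member, 267 bp from the CBP start, had a signal of 1020.4 and ranked 181, 115 and 180 in replicates 1, 2 and 3. Since several genes overlap there, the gene that such a summit belongs to cannot be read from its position.

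The cluster at mam, the coactivator of Notch signalling, differed in strength. Its 7 members over 8520 bp of arm 2R, of which 6 were nearest to mam and 1 to RN-tre, had signals of 124.7 to 255.3. The strongest ranked 2569, 2637 and 2621 in replicates 1, 2 and 3, and the seventh member ranked 13875, 2817 and 3717, so replicate 1 placed it far lower than the other 2 replicates did.

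At ph-p, which encodes a subunit of Polycomb repressive complex 1, 5 members lay over the promoter region and an intron. The fourth, 475 bp from a start, had a signal of 2492.0 and ranked 12, 9 and 14 in replicates 1, 2 and 3. The last, 431 bp from a start, had 1147.1 and ranked 115, 139 and 92. These 2 summits are neighbours and stood above the rest of the cluster, since the other 3 members had 221.0 to 472.1.

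Kdm2, which encodes a histone demethylase, had 6 members that ran from its promoter into the gene. The 2 members farthest from the promoter, 2632 and 4250 bp from the nearest start, were the strongest, with 598.1 and 842.9. The promoter member had 296.6. The strongest ranked 281, 333 and 215 in replicates 1, 2 and 3, and the promoter member ranked 1325, 1721 and 2600, so all 3 replicates placed the distal member higher.

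**Figure D2:**
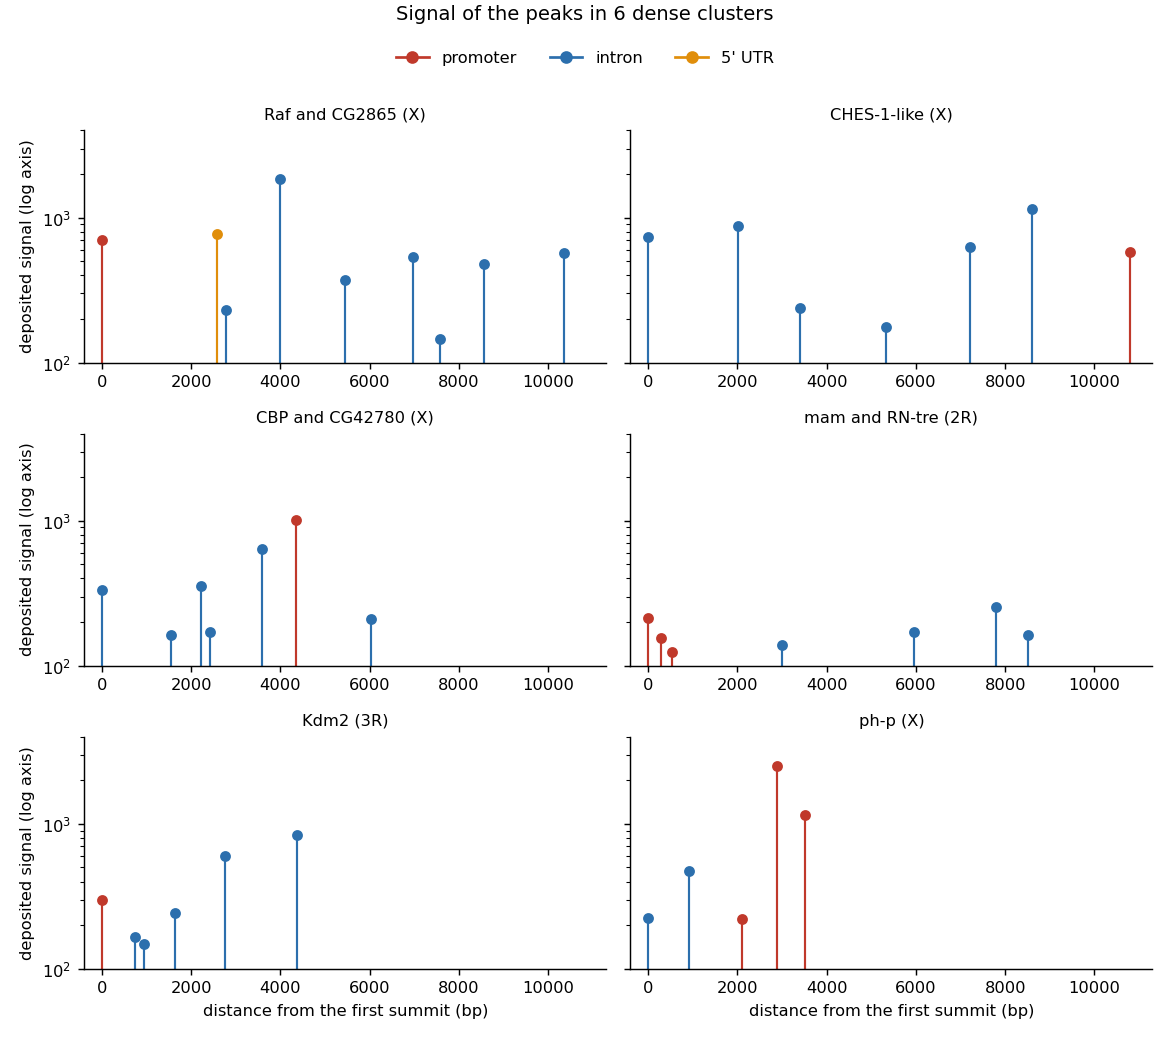
Each panel plots the deposited signal of every member of 1 cluster (y axis, log scale, stems drawn from 100) against the distance in bp from the first summit (x axis), coloured by the annotation at the summit. The strongest member is intronic at Raf, CHES-1-like, mam and Kdm2 and lies at a promoter at CBP and ph-p, and all members at mam stay at or below 255.3.

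Among the remaining clusters of at least 6 members, 1 on the X chromosome lay over lncRNA:Vinr and lncRNA:CR44619, with members of 2046.6 and 1712.8 that ranked no lower than 52 in any replicate. The cluster at CG3552 and CG44838 had 1 strong member, with 1448.9 and ranks of 73, 54 and 77 in replicates 1, 2 and 3. The clusters at CG14434, shn, Mob2, and msn with RpL8 and dos were led by members of 704.8, 511.5, 373.8 and 365.8. Of these, shn encodes a zinc finger cofactor of Dpp signalling, msn a kinase and dos an adaptor of receptor tyrosine kinase signalling. Of the clusters of 5, the one at chif was led by a signal of 1496.5 and the one at Moe by 818.3. One cluster of 5 was wholly intergenic, 6579 to 9583 bp from the nearest coding start, that of CG7560, with signals of 244.1 to 566.5.

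The strongest single members were not all in these large clusters. The highest, in an intron of cbt, which encodes a zinc finger transcription factor, had a signal of 3748.7, ranked 3 in the whole list, and ranked 4, 3 and 4 in replicates 1, 2 and 3. After ph-p came members at larp (2454.0), tara (2332.7), HmgZ (2223.3), lncRNA:Vinr (2046.6), Tina-1 (2035.3), MFS10 (2001.4), Raf (1846.7) and Atf3 (1823.4). All 10 ranked within the first 63 peaks of every replicate.

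Within clusters, strength was uneven, and the replicates shared the strongest member more often where its lead was wide. The lead was measured in the thresholded list, which was made from these same replicates. More agreement at a wide lead is therefore built in, and the counts are a description. In the 242 clusters of at least 3 members, the strongest member had a median of 2.82 times the signal of the weakest and 1.67 times that of the second. The same member was strongest in all 3 replicates in 176 clusters (72.7%), with members that matched the same replicate peak counted as tied and not as a change. Per replicate, it was the same in 85.5%, 88.4% and 93.0% of clusters for replicates 1, 2 and 3 (mean 89.0% ± 3.75, SD, n = 3), with a tie in 56, 62 and 65 of the clusters. Where the lead over the second member was under 1.2 times, 8 of 51 clusters kept their leader in all 3 replicates. With a lead of 1.2 to 2 times, 82 of 102 did, and with a lead of 2 times or more, 86 of 89 did. With overlapping peaks reduced to the strongest and ties counted as a change, 112 of 163 clusters (68.7%) kept their leader, in 3 of 35, 52 of 68 and 57 of 60 for the same ranges of the lead.

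In clusters with both promoter and other members, the share led by a promoter member was near the promoter share of their members. Of 138 clusters with both promoter and other members, 54 (39.1%) were led by a promoter member, and promoter members made up 225 of the 506 members (44.5%) of those clusters. Of all 242 clusters, 180 had a member within 500 bp of an annotated start, 42 had only promoter members, 46 had only intronic members and 14 were wholly intergenic. In 149 clusters (61.6%) all members had the same nearest protein-coding gene, and in 89 (36.8%) no protein-coding start lay between the first and the last summit.

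Compared with the 5234 other peaks, members lay less at promoters and more in introns. The promoter share was 41.8% (95% exact binomial interval 38.7 to 44.9) of members and 53.8% (52.5 to 55.2) of other peaks. The intron share was 43.6% (40.5 to 46.7) against 30.8% (29.5 to 32.1), and the intergenic share was 11.9% against 13.2%. With overlapping peaks reduced to the strongest, the promoter share was 37.3% (33.7 to 40.9) against 53.1% (51.8 to 54.5) and the intron share 47.5% against 31.4%. These intervals cover counting error only, and neighbouring peaks are not independent, so no test was made. Members lay a median of 959.5 bp from a coding start and other peaks 430 bp, while 6.53% of members and 9.55% of other peaks lay over 10 kb away. Outside promoters, 339 of 580 members (58.4%) lay downstream of the nearest start in the gene's direction, against 59.0% of other peaks. Members took 21.6% from the X chromosome against 18.3% of other peaks, and 19.9% from 3R against 24.5%. Chromosome 4 had 23 other peaks and 0 members. Over all peaks 16.0% were members, and with so few peaks the 0 is not read as a lack.

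**Figure D3:**
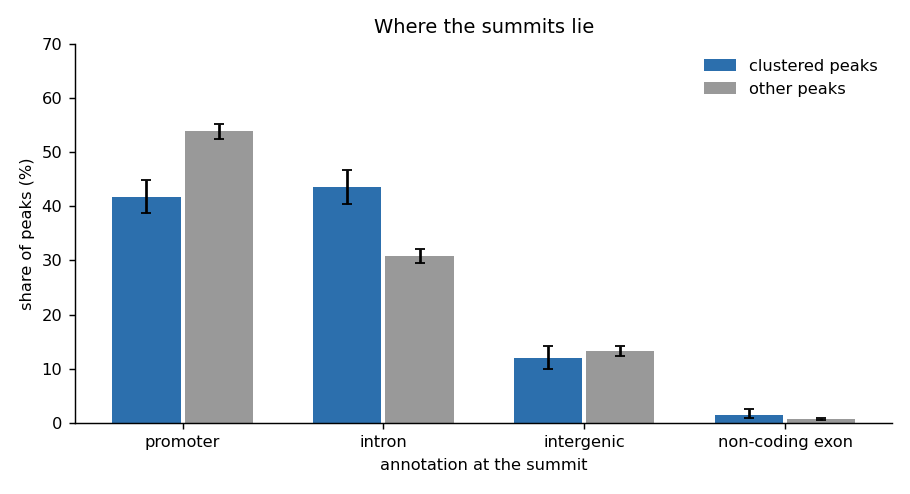
Bars give the share of peaks in percent (y axis) in each annotation class (x axis) for 996 clustered and 5234 other peaks, with exact 95% binomial intervals that cover counting error only. The promoter bar is lower for clustered peaks (41.8% against 53.8%) and the intron bar higher (43.6% against 30.8%).

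In deposited signal, with all peaks kept, members differed from other peaks mainly away from promoters. The median signal was 226 for members and 209 for other peaks, and 114 of the strongest 500 peaks (22.8%, 19.2 to 26.7) were members. At promoters the median was 221.0 for members and 226.7 for others. In introns it was 231.1 against 195.0, and between genes 235.5 against 183.9. In the replicates' own rankings, members stood higher than other peaks in each class and each replicate. Intergenic members had median ranks of 2363, 2057 and 2196 in replicates 1, 2 and 3, against 4475, 3759 and 3725 for other intergenic peaks (means over replicates 2205 ± 153 and 3986 ± 424, SD, n = 3). Intronic members had 2743, 2371 and 2550.5, against 3782, 3331 and 3467. At promoters the medians were 2380.5, 2468 and 2362, against 2727.5, 2735 and 2686. Unmatched peaks entered these medians as ranked last.

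Part of this gap moves with the overlapping pairs, whose weaker peak takes the rank of the stronger in a replicate. With overlapping peaks reduced to the strongest, the medians over replicates were 2603 ± 189 (SD, n = 3) for 87 intergenic members against 3955 ± 406 for 699 others. For introns they were 2722 ± 201 against 3521 ± 234, and for promoters 2532 ± 34.9 against 2781 ± 43.1. In each class the 3 values of members stayed below the 3 values of other peaks.

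**Figure D4:**
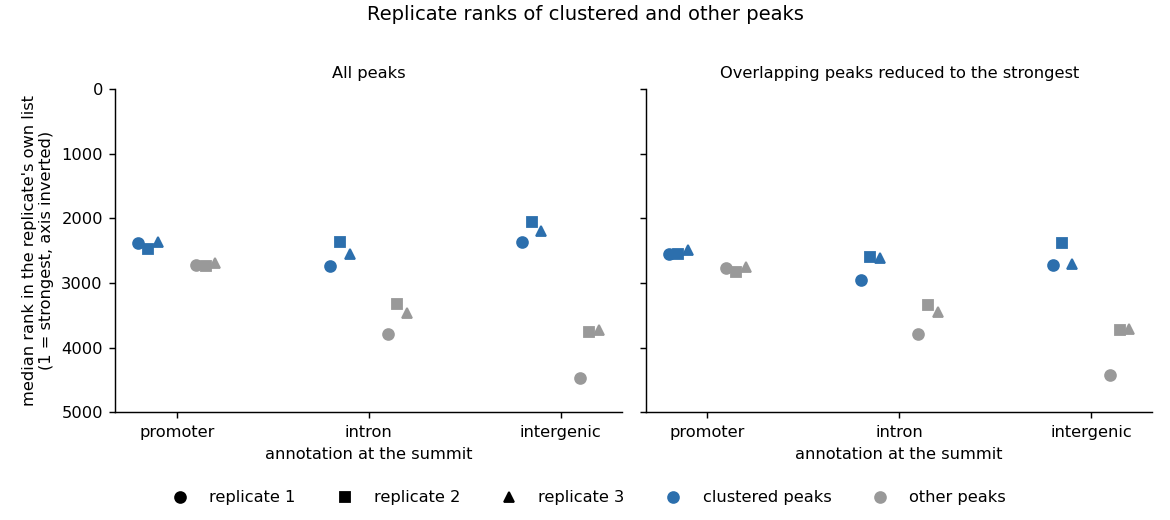
Median rank in each replicate's own list (y axis, inverted, 1 is the strongest) for clustered and other peaks by annotation class (x axis), with 1 point per replicate, for all peaks and with overlapping peaks reduced to the strongest. Points of clustered peaks sit higher than those of other peaks in every class, least so at promoters, and the intergenic distance is 2205 against 3986 with all peaks and 2603 against 3955 in the reduced set.

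The replicates held the members in most cases. Among each replicate's own first 6230 peaks, 85.6% of members overlapped one in replicate 1, 91.0% in replicate 2 and 94.6% in replicate 3, against 80.3%, 84.9% and 91.8% of other peaks. All 3 held 759 members (76.2%, 73.4 to 78.8) and 3471 other peaks (66.3%, 65.02 to 67.6). For 50 members only 1 replicate did. All members were held by at least 1 replicate, while 25 other peaks were held by none. The summit moved by a median of 22, 22 and 9 bp in replicates 1, 2 and 3. The thresholded list was made from these same replicates, so this describes support and is not an independent check.

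By signal quintiles of the whole list, support in all 3 replicates was 100%, 98.1%, 88.7%, 57.1% and 27.7% for members, from strongest to weakest, and 99.8%, 97.2%, 82.8%, 44.7% and 9.36% for others. In the weakest quintile, 43 of 188 members overlapped a stronger peak, and 37 of those 43 were in all 3 replicates, against 15 of the 145 that did not overlap one (10.3%). With overlapping peaks reduced to the strongest, support in the weakest quintile was 9.17% (4.67 to 15.8) of 120 members and 6.32% (4.91 to 7.98) of other peaks, and the intervals overlap.

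**Figure D5:**
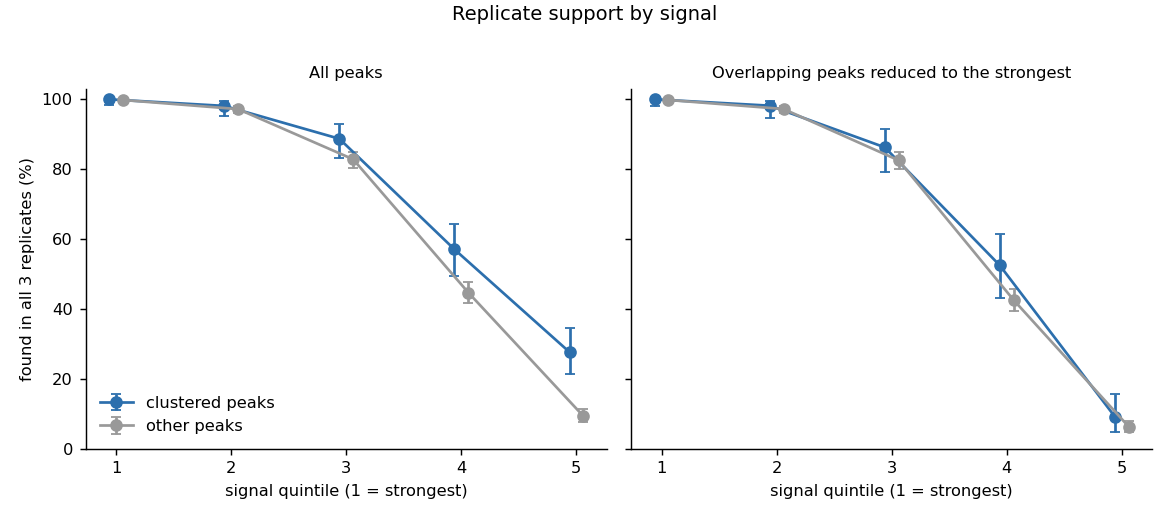
Share of peaks found among the first 6230 peaks of all 3 replicates (y axis, percent) by signal quintile (x axis, 1 is the strongest), with exact 95% binomial intervals that cover counting error only. In the weakest quintile, clustered and other peaks are at 27.7% and 9.36% with all peaks kept, and at 9.17% and 6.32% once overlapping peaks are reduced to the strongest.

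Applied to each replicate's own first 6230 summits, the rule found 1170, 1023 and 1057 dense summits in replicates 1, 2 and 3 (18.8%, 16.4% and 17.0%), in 408, 363 and 378 clusters. Of the 996 members, 65.5%, 69.2% and 81.3% overlapped a dense summit of replicates 1, 2 and 3, against 5.12%, 3.48% and 2.77% of other peaks. Members were chosen by this same rule from a list made from these replicates, so a wide gap was fixed in advance. The values describe the spread between replicates only. In all 3 replicates the surroundings were dense for 413 members (41.5%), and in none for 37 (3.71%). Conversely, 56.3%, 67.5% and 77.4% of the dense summits of each replicate overlapped a member.

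Clustered summits shared base composition with other summits. The 101 bp at the summit had a mean GC content of 34.5% for members and 34.6% for others, against 43.2% and 44.2% in windows 500 bp to either side. Of members, 7 (0.703%, 0.283 to 1.44) held CACGTG and 18 (1.81%, 1.07 to 2.84) held CACGCG, against 0.822% and 1.03% of other peaks. The 2 words together were in 25 members (2.51%), such as the fok, Sxl and CG14434 windows printed above, and in 4.12% of members' side windows, of which each peak has 2. Both words were thus found less often at the summits than beside them, as among other peaks (1.83% and 4.35%). CACNAG was in 10.2% of members and 10.3% of others, and GAGAG in 8.63% and 9.23%. GAGAG was in 16.1% of members' side windows and 13.6% of those of other peaks.

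TATCGATA stood more at the summit than beside it. It was found in 14 members (1.41%, 0.771 to 2.35) and in 0.201% of their side windows. Here too, the part of the lower GC content at the summits was not tested. All 14 were at promoters, where it made up 3.37% (1.85 to 5.58) of 416 members against 4.76% (4.00 to 5.61) of other promoter peaks. Away from promoters it was in 0 of 580 members, which allows a share of up to about 0.517% (3 divided by 580), and in 6 of 2416 other peaks. CATATG was in 4.42% of members and 3.97% of their side windows, and CAGGTAG in 0.602% and 0.351%.

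Of 13945 protein-coding genes, 474 (3.40%) were the nearest gene to at least 1 member, and 3974 were nearest to any peak. These 474 had a median length of 6436 bp, against 3565 bp for genes with other peaks only and 2166 bp for all. Of 1977 genes of 10 kb or more, 198 (10.02%) had a member, against 2.31% of shorter genes. Gene length moves with these counts, and its part in the gene lists below was not tested. The genes with the highest counts were shn and aop (9 members each), Raf (8), CHES-1-like and ckn (7 each).

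The EGFR pathway list had the highest share of the lists examined, with 6 of 21 genes (28.6%) nearest to 30 members, at a median gene length of 16810 bp. Counted over genes nearest to any peak, the share was 33.3% of 18 EGFR genes. It was also 33.3% of 6 glial genes, and 11.9% of 3974 genes in all. With overlapping peaks reduced to the strongest the EGFR list had the same count of genes, 6, with 23 members, while all genes went from 3.40% to 2.62%. Its members lay at the kinase Raf (8), the Ets repressor aop (9), the Ets activator pnt (5), the Ets antagonist edl (4), the ligand gene spi (2) and S, whose product handles the ligand (2). The other 15 genes had none, among them Egfr itself and rl, the MAP kinase. In every list, and over all genes, the median number of members per gene was 0.

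At aop, known also as yan, the 9 members fell into 2 clusters, 4 inside the gene upstream of an internal start and 5 around and upstream of its first start. In the first, signals were 155.0, 148.8, 501.4 and 255.3. In the second they were 162.5, 443.1, 373.9, 132.7 and 217.0. The leader of the first ranked 921, 565 and 904 in replicates 1, 2 and 3, and its 2 weakest members shared replicate peaks of ranks 10907, 2321 and 4673. The members at pnt, all 10360 bp or more from the nearest coding start, had 138.8 to 290.9. At edl a single intronic member led with 889.3 and ranks of 250, 208 and 211, and 2 promoter members that overlapped had 388.6 and 212.9.

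Among other signalling genes, 2 of 17 of the Dpp list had members: shn, with 9 in 2 intronic clusters and signals of 135.3 to 511.5, and brk, the repressor of Dpp targets, with 128.0 and 139.4. Of the Notch list, 1 of 19 genes (5.26%) had any, mam (6 members), against 3.40% of all protein-coding genes. Of the segment polarity list, 1 of 16 did, the Hedgehog receptor gene ptc, with 157.4 and 286.3. Of the Polycomb list, Kdm2 (6) and ph-p (5) of 18 did.

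Of all protein-coding genes, 3.40% had a member. Among genes of the nervous system, 2 of 25 neuroblast genes (8%) had members. These were dlg1, a scaffold of cell polarity (3 members, 163.3 to 362.6), and aPKC, the apical polarity kinase (310.9). Reducing overlapping peaks left 1 gene with 1 member. Of the Hairy and E(spl) family, 1 of 12 (8.33%) had one, E(spl)m3-HLH (152.4), and dpn itself had no peak nearest to it. Of 27 temporal and spatial factors, chinmo had 5 and sqz 2. The chinmo members, mostly upstream, had signals of 129.3, 171.2, 519.0, 229.5 and 123.5, and the strongest ranked 494, 524 and 941 in replicates 1, 2 and 3. Of 18 neuronal genes, 1 (5.56%) had members: elav, an RNA-binding protein of neurons, with 616.8, 1181.0 and 156.0. The middle one, 270 bp from the start, ranked 156, 104 and 107. Of 12 glial genes, pnt (5) and loco (1) had members.

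The patterning lists rest on small counts. Of 11 gap and 10 pair-rule genes, 0 had a member, although 2 gap and 6 pair-rule genes were nearest to some peak. Over all genes the share with a member was 3.40%, and 11.9% of those nearest to some peak. In lists this short, 0 is therefore not read as a lack. Of 8 Hox genes, Antp had 3 intronic members of 173.6 to 333.6, 18298 bp or more from the nearest coding start. Of 17 ecdysone genes ftz-f1 had 3, with 134.3 to 235.0, of 17 mesoderm genes Doc2 had 1, and of 13 tracheal genes pnt had 5 and Awh 1. Of 23 cell cycle genes Cdk4 (3), Dp (2) and aurB (1) had members, led by Dp with 694.0 at 222 bp from the start. Of 17 promoter and boundary factors Trl (606.1) and mod(mdg4) (134.4) had 1 each. Of 93 ribosomal protein genes 7 (7.53%) had 8 members in all, and 4 did with overlapping peaks reduced. Shares of the lists other than EGFR ran from 0% to 16.7%, against 3.40% of all genes, and most rest on 1 or 2 genes.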

How the data were processed

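Per the deposited text listings, the authors made 1 relaxed dm6 peak list per replicate and 1 on the pooled replicates, with a control file in each, and took from these lists the thresholded dm6 list by the irreproducible discovery rate procedure. The dm3 thresholded list came from the replicate 2 list and the pooled list. For the aligner, caller, threshold and depth the entry is: not given in the sources used here. The deposited signal has no defined scale, so it served as a ranking inside each list. The deposited −log10 q-values were not used to grade peaks. The deposited summit offset is a position score that was added to the peak start.

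The members and lists were chosen with earlier results of these data known. Summits were set against Release 6 with Ensembl 115 gene models (13945 protein-coding genes) in the order promoter (within 500 bp of any start), 5′ UTR, coding sequence, 3′ UTR, intron, exon of a non-coding gene, and between genes, and each took the nearest protein-coding start as its gene. Coordinates are 1-based. A replicate peak matched if it overlapped by 1 bp or more, and the strongest match was used. DNA words were counted on both strands within 50 bp of the summit and in windows centred 500 bp to each side. Words can overlap, and CACGTG and CACGCG differ from CACNAG. Named are the 15 clusters with most members, the 10 strongest members and up to 4 genes with members per list. For the EGFR list all 6 such genes are named. Of the listed symbols, 8 (such as dys and sco) were not matched, and yan, phl and h were matched as aop, Raf and hry. With 1 group, no test was run. Shares have exact (Clopper-Pearson) 95% intervals for counting error. The upper limit for TATCGATA away from promoters is instead the approximation 3 divided by the number of peaks. Scripts used Python 3.11.15, pandas 2.3.3 and SciPy 1.17.1, and were checked on simulated lists.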

Additional observations from a re-analysis of the deposited data

How the results depend on the processing

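The count of members depends on the rule's settings. Within 2000 bp there were 533 members (8.56% of peaks) and within 5000 bp 1887 (30.3%). Asking for 3 other summits gave 261 members (4.19%) in 104 clusters, the stronger 50% of peaks by signal gave 220 (7.06%) in 93, and peaks found in all 3 replicates gave 487 (11.5%) in 183. The dm3 thresholded list gave a share of 15.04%. Reducing overlapping peaks to the strongest, chosen after the data had been seen, gave 12.1% of peaks and 37.3% of members at promoters. Promoters of 250 and 1000 bp gave 30.8% and 56.5%. Where 50% of the peak had to be overlapped, 66.1% of members were in all 3 replicates and 63.6% of clusters kept their strongest member, and with 2 times as many or all peaks of each replicate, support was 94.98% and 97.6%. Words within 100 bp gave 2.91% for TATCGATA and 6.02% for CACGTG or CACGCG. Peaks held by both of the other replicates, leaving out each in turn, gave 528 to 681 members (12.01 to 13.6%) in 197 to 251 clusters, with the same strongest member in 76.9 to 83.1%. The fewest came without replicate 3, and the causes were not tested. In all, 33 values moved and 32 stayed within the spread set for them. That spread was wide for counts. The fall from 996 to 722 members with overlapping peaks reduced was counted as staying. So was the rise from 369 to 464 clusters with members joined within 2000 bp. For the share of peaks it was narrow, since 15.04% against 16.0% was counted as moved. A value that stayed can thus differ much from the main one. No paired analysis was possible because there is 1 group. Read depth was not given, so a summit near the end of a list cannot be judged by its reads.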
